A study of Homo sapiens with 6 samples.

Results

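The cytidine deaminases CDA, DCTD, CDADC1, APOBEC3B, APOBEC3C, APOBEC3F and APOBEC3G are 7 of the 18665 genes named on the array, and all of their probes, 12 in number, were followed. Expression was measured in LNCaP, an androgen-responsive cell line derived from a lymph node metastasis of prostate cancer. The cells had been exposed to siRNA at 100 nM for 72 h when they were harvested. The control group of 3 samples received siRNA against luciferase (Luc siRNA), a firefly gene that human cells do not have, and the other group of 3 samples received siRNA against TCTP (TCTP siRNA), the protein encoded by TPT1. A single siRNA sequence was used per target, and no array of untransfected cells was analysed here. Each sample was hybridised to 1 Illumina HumanWG-6 v3 array. The record of the series calls the samples biological replicates, and nothing in the sources used here says whether they came from separate transfections, so that p-values measure the spread between these samples.

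Cytidine deaminases remove the amino group of cytosine and leave uracil. CDA acts on the free nucleosides cytidine and deoxycytidine in pyrimidine salvage, and it inactivates cytosine analogues such as gemcitabine and cytarabine. DCTD converts dCMP into dUMP, the substrate from which thymidylate synthase makes dTMP. The APOBEC3 enzymes act on cytosines in single-stranded DNA and restrict retroviruses and mobile elements, and APOBEC3B has been linked to cytosine mutations in tumour genomes. Several APOBEC3 genes are known to respond to interferon in some cell types.

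The 7 genes were chosen by measured values of the same comparison, in that earlier results were known, among them the lower CDA signal with TCTP siRNA. The changes between the groups are therefore given as a description, with standard errors and 95% intervals from limma and without p-values. The number of member probes that pass the threshold used for all probes is given beside the share of all probes, and nothing is read from it.

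CDA was the member whose signal differed most between the groups, and DCTD was the nearest member in function with a detected transcript. The 250 bases before the RefSeq start of each gene (assembly GRCh38.p14) are therefore shown, with every CG dinucleotide, the site of DNA methylation, in capitals. The CDA window lies at chr1:20588847-20589096 on the plus strand and the DCTD window at chr4:182917612-182917861 on the minus strand, each printed 5′ to 3′ in the direction of transcription.
CDA: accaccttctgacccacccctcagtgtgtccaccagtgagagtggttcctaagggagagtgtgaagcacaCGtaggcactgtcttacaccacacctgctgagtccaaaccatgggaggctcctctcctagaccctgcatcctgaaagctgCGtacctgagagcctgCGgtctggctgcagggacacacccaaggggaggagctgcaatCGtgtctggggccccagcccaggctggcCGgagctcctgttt
DCTD: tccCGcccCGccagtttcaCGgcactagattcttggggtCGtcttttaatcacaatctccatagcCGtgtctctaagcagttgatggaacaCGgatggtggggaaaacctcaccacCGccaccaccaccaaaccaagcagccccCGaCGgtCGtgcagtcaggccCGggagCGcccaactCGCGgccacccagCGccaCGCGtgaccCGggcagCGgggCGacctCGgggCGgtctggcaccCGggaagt
The CDA window held 5 CG dinucleotides and that of DCTD held 23, against a median of 11 over 35116 windows of the same length. Of all windows, 38.1% held no more than that of CDA and 76.3% no more than that of DCTD. DCTD has another listed start, whose window held 40, and the CDADC1 window held 15. In the table used, 3 of the 7 members had a promoter, and APOBEC3B, APOBEC3C, APOBEC3F and APOBEC3G are named only. On both strands of the longer windows from 250 bases before to 50 bases after the start, the letters GAAANNGAAA (as in interferon-stimulated response elements), TTCNNNGAA (as in STAT binding sites) and TATAAA were searched. They occurred in 3.57%, 7.66% and 11.5% of all such windows, and none occurred in those of CDA, DCTD or CDADC1. No methylation or binding was measured, and the letters are a description of these windows only.

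TPT1 served as the check of the labels. The log2 signal of its probe ILMN_1789614 was 12.95, 13.17 and 13.23 with Luc siRNA and 12.25, 12.47 and 12.39 with TCTP siRNA, a change of −0.75 (adjusted p = 0.00331, limma, n = 3 per group). The groups overlapped for the other probe, ILMN_2094718, whose change was −0.19 (adjusted p = 0.471, limma). All 7 luminal prostate markers with a named probe, among them KLK3, HOXB13 and FOLH1, were detected on all 6 arrays, and their summed linear signal was 11403.7 to 11768.5 with Luc siRNA and 10075.9 to 10875.1 with TCTP siRNA. These sums did not overlap, and their part in the results was not tested. Of 13 leukocyte genes 11 were detected on no array and CD79B was detected on all 6, while 3 of 4 hepatocyte genes and 5 of 5 fibroblast genes were detected on none. The remaining hepatocyte gene, TTR, was detected on all 6 arrays. The summed leukocyte signal was 558.8 to 581.7 with Luc siRNA and 532.6 to 573.0 with TCTP siRNA. Between 12828 and 13741 probes per array were detected, that is, had a detection p under 0.01.

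CDA had a single probe, ILMN_1714592. Its deposited intensity, neither normalized nor background-subtracted, was 131.6, 133.4 and 127.5 for Luc siRNA, against 45.8, 44.4 and 58.4 for TCTP siRNA. All 3 control arrays were higher than all 3 arrays of TCTP siRNA. In the Luc siRNA samples 18.5% to 19.9% of all probes were brighter than CDA, and in the TCTP siRNA samples 29.7% to 33.3% were. The detection p, the share of negative control probes that are at least as bright, was 0 on every Luc siRNA array and 0.0211, 0.0303 and 0.0171 on the TCTP siRNA arrays. CDA was thus detected on 3 of 3 arrays of Luc siRNA and on 0 of 3 of TCTP siRNA. At a detection p under 0.05 all 3 of the latter would count as detected, so that their signal lay just above the background.

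After quantile normalization the log2 signal of CDA was 6.88, 7.03 and 7.09 with Luc siRNA and 5.62, 5.59 and 5.79 with TCTP siRNA. The group means were 7.0 ± 0.11 and 5.67 ± 0.11 (SD, n = 3 each), and the change was −1.33 (SE 0.11, 95% interval −1.56 to −1.10). The signal was 2.52-fold lower as fitted, which left 39.7% of the control level with the background included. Since the TCTP siRNA arrays gave only a bound, CDA was at least 2.02-fold lower when each of these arrays was set to its lowest detected signal or to the signal of the probe, whichever was higher. The within-group SD of 0.11 was close to the median of 0.13 over all kept probes, and the middle 95% of their changes ran from −0.38 to 0.37. In a culture, fewer cells that express a gene and less of its RNA per cell cannot be told apart.

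**Figure D1:**
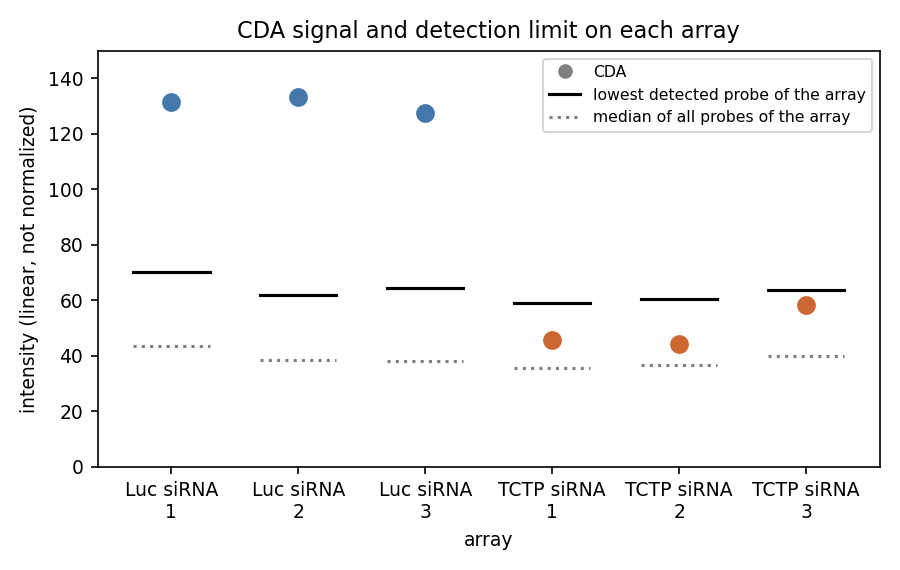
Deposited intensity of the CDA probe on each array (linear vertical axis) for Luc siRNA and TCTP siRNA, with a line for the lowest detected probe of the array and a dotted line for the median of all its probes. The Luc siRNA arrays sit between 127.5 and 133.4, and the TCTP siRNA arrays between 44.4 and 58.4, each below the lowest detected intensity of its array.

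DCTD was measured by a pair of probes, both detected on every array. For the brighter one, ILMN_1802456, the log2 signal was 9.93, 9.95 and 9.84 with Luc siRNA and 10.18, 9.98 and 9.81 with TCTP siRNA. The highest and the lowest of these arrays both belonged to TCTP siRNA, and the change was 0.08 (SE 0.11, 95% interval −0.16 to 0.33). The other probe, ILMN_2415011, gave 7.64, 7.89 and 7.89 with Luc siRNA and 8.04, 7.97 and 7.70 with TCTP siRNA. Its groups overlapped as well, with a change of 0.10 (SE 0.12, 95% interval −0.16 to 0.36).

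CDADC1 carries a deaminase domain of the same kind as DCTD. Its probe ILMN_1763878 was detected on no array, with detection p between 0.0105 and 0.0224. The log2 signal was 5.97, 5.80 and 5.79 with Luc siRNA and 5.61, 5.75 and 5.73 with TCTP siRNA. The groups did not overlap, but the highest array of TCTP siRNA lay just under the lowest of Luc siRNA. The change was −0.16 (SE 0.09, 95% interval −0.35 to 0.04), between values that were both near the background, so that no fold is given.

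APOBEC3B, which is found in the nucleus, had 1 probe, ILMN_2219466, detected on all arrays. Its log2 signal was 7.73, 7.84 and 7.70 with Luc siRNA and 7.47, 7.88 and 7.54 with TCTP siRNA. TCTP siRNA sample 2 was the highest of all arrays and the remaining pair of TCTP siRNA samples were the lowest. The change was −0.12 (SE 0.12, 95% interval −0.38 to 0.13).

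APOBEC3F, an enzyme with paired deaminase domains that is packaged into retroviral particles, had 4 probes. The brightest, ILMN_2296950, had a log2 signal of 7.75, 7.79 and 7.74 with Luc siRNA and 7.81, 7.99 and 7.80 with TCTP siRNA. Its groups did not overlap, the lowest TCTP siRNA array lying just above the highest of Luc siRNA, and the change was 0.11 (SE 0.10, 95% interval −0.11 to 0.32). ILMN_2412172 gave 6.66, 6.76 and 6.56 with Luc siRNA and 6.79, 6.89 and 6.67 with TCTP siRNA, with overlapping groups and a change of 0.13 (SE 0.11, 95% interval −0.10 to 0.36). ILMN_1710726 is annotated to a RefSeq transcript other than that of the remaining APOBEC3F probes. It gave 7.27, 7.09 and 7.18 with Luc siRNA and 7.08, 7.04 and 7.22 with TCTP siRNA, and its change of −0.07 (SE 0.10, 95% interval −0.29 to 0.16) had the opposite sign. The intervals of these probes overlap, and no sign can be given to APOBEC3F. The fourth probe, ILMN_1702706, was detected on no array, with log2 signals between 5.15 and 5.30.

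APOBEC3C and APOBEC3G, a pair of restriction factors that are abundant in lymphocytes, were detected on no array. The APOBEC3C probe ILMN_1675684 lay between 5.15 and 5.41 on the log2 scale, with detection p of 0.0527 to 0.443. The APOBEC3G probes lay between 4.84 and 4.91 (ILMN_1802106) and between 5.32 and 5.42 (ILMN_2232478), with detection p of 0.813 to 0.922 and 0.0738 to 0.111. Neither transcript reached the detection threshold in either group, and a difference below that threshold could not be seen. Of the 13 leukocyte genes CD79B, a B cell gene, was detected on all 6 arrays and 11 on none.

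**Figure D2:**
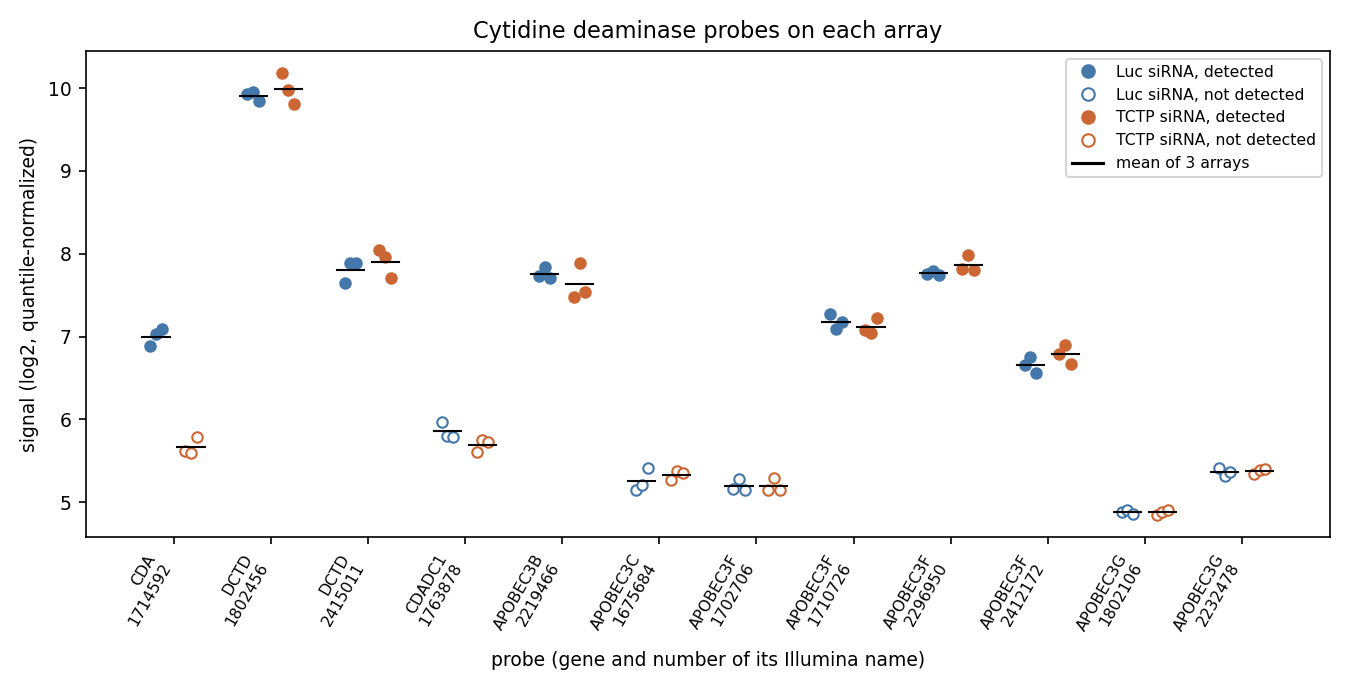
Log2 signal of each member probe on each array after quantile normalization, with group means, for 3 Luc siRNA and 3 TCTP siRNA samples. CDA falls from between 6.88 and 7.09 to between 5.59 and 5.79, while the groups of the other probes lie close together; heights are to be compared within a probe only.

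Of the 12 member probes, 7 from 4 genes passed the filter, which asked that 3 or more of the 6 arrays detect a probe, 6 of them on all arrays, and CDA passed only through the Luc siRNA arrays. 1 member probe, that of CDA, was called lower at an adjusted p under 0.05 and 0 were called higher, beside 1.93% of the 13484 kept probes, and beside 2.55% of the 8968 genes when 1 probe, the brightest that passed, stood for a gene. The remaining 6 kept probes changed by at most 0.13 in either direction. The probes of 3 members did not overlap between the groups, namely CDA, CDADC1 and 1 probe of APOBEC3F, beside 13.2% of all 48803 probes. Among kept probes alone, to which that of CDADC1 does not belong, the share was 19.8%.

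**Figure D3:**
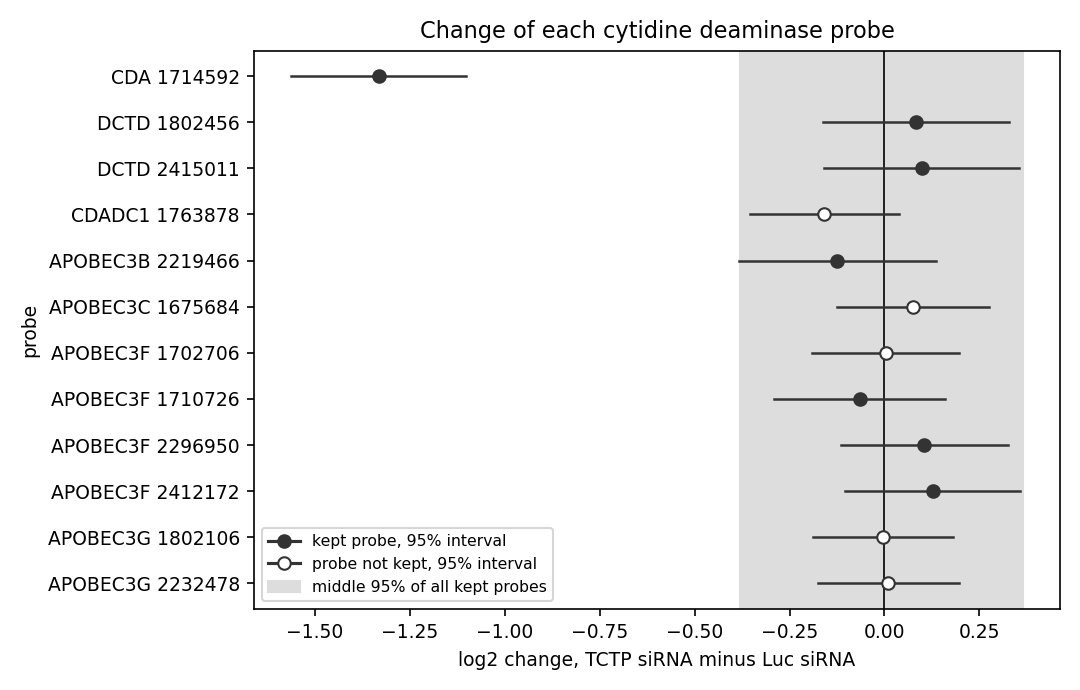
Change in log2 signal (TCTP siRNA minus Luc siRNA) of each of the 12 member probes, with bars for the 95% interval, and kept and unkept probes marked apart. CDA sits at −1.33 and every other probe between −0.16 and 0.13, with intervals that hold 0.

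The neighbours of the deaminases in metabolism were taken from a list of 40 genes for pyrimidine synthesis, salvage, deoxynucleotide supply and breakdown. All 40 had a probe, and 27 were tested. None was called and 0 passed an unadjusted p under 0.05 in limma, beside 2.55% of all genes called and 1403 of 8968 at that unadjusted level. The median change was 0.02 against 0.00 over all genes, with 12 negative and 15 positive changes between −0.23 and 0.27. The smallest p belonged to NME2, a nucleoside diphosphate kinase, with 12.59, 12.61 and 12.40 with Luc siRNA and 12.31, 12.45 and 12.14 with TCTP siRNA, a change of −0.23 (SE 0.11, limma adjusted p = 0.343). TK1, the thymidine kinase of dividing cells, came next with 9.35, 9.67 and 9.54 against 9.65, 10.07 and 9.64, a change of 0.27 (SE 0.13, limma adjusted p = 0.359). Both genes had overlapping groups. UPP1, UPP2, CMPK2, NT5E, SAMHD1, DPYD, DPYS, UPB1, SLC29A1, SLC28A1, SLC28A2 and SLC28A3 were detected on no array. These include the concentrative nucleoside carriers and the enzymes that break down uracil.

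A list of 22 other deaminases of bases and nucleosides, with cofactors, had 20 genes with a probe and 7 tested. Of these 0 were called and 0 passed an unadjusted p under 0.05 in limma, beside 2.55% and 1403 of all 8968 genes, which with 7 genes leaves little to compare. The median change was −0.01. The smallest p was that of ADAT1, a tRNA adenosine deaminase, with log2 signals of 7.75, 7.84 and 7.69 with Luc siRNA and 7.59, 7.56 and 7.56 with TCTP siRNA. Its groups did not overlap, and the change was −0.19 (SE 0.10, limma adjusted p = 0.382). RBM47, an RNA-binding cofactor of APOBEC1, changed by −0.17 (SE 0.12, limma adjusted p = 0.564) with overlapping groups. APOBEC3A, APOBEC3D, APOBEC3H, APOBEC1, APOBEC4, A1CF, ADARB2, ADAT2, ADA2, AMPD1, AMPD2, AMPD3 and GDA were detected on no array. The APOBEC3 genes lie next to each other on chromosome 22, and within this cluster APOBEC3B and APOBEC3F were the genes with a detected probe.

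Uracil left in DNA by deamination is removed by glycosylases and the gap is filled by base excision repair. Of 15 genes listed for glycosylases and base excision repair, 14 were tested, and 0 were called by limma, beside 2.55% of all genes. The list is called uracil excision here, although not every gene on it acts on uracil. An unadjusted p under 0.05 was reached by 3, all with higher signal under TCTP siRNA, beside 1403 of 8968 genes, so that the count was near the share over all genes. The median change of the 14 was 0.05 against 0.00 over all genes, in a range of −0.16 to 0.40. FEN1, the flap endonuclease of long-patch repair, gave 9.88, 9.90 and 9.85 with Luc siRNA and 10.36, 10.29 and 10.17 with TCTP siRNA. All TCTP siRNA arrays were higher, and the change of 0.40 (SE 0.10, limma adjusted p = 0.0514) just missed the threshold. Other settings put FEN1 past it, with adjusted p between 0.0389 and 0.205 over all settings run. MBD4, a glycosylase for deaminated methylcytosine, gave 8.96, 9.29 and 9.23 with Luc siRNA and 9.35, 9.39 and 9.51 with TCTP siRNA, a change of 0.26 (SE 0.11, limma adjusted p = 0.275).

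**Figure D4:**
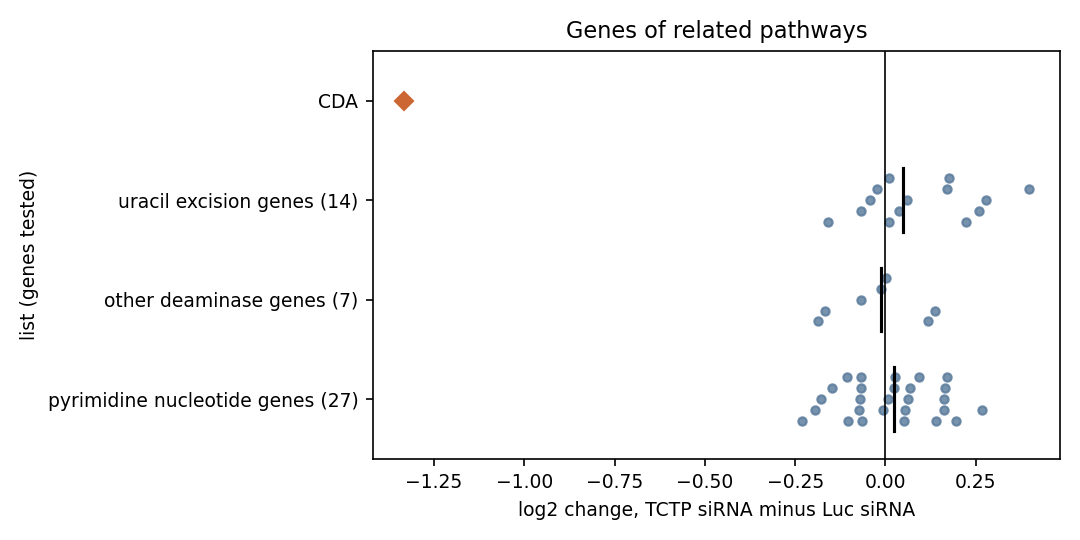
Change in log2 signal (TCTP siRNA minus Luc siRNA) of every tested gene of the lists for pyrimidine nucleotides, other deaminases and uracil excision, beside the CDA probe, where each point is a gene and the short vertical bars are list medians. The lists run from −0.23 to 0.27, from −0.19 to 0.14 and from −0.16 to 0.40 in log2 units, and CDA, which was chosen for its change, is drawn at −1.33.

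The genes whose log2 signal followed that of CDA most closely over the 6 arrays, among 8964 genes compared, were IFI44 (r = 0.998, change −1.81), IRF9 (r = 0.997, change −1.55), ACSM3 (r = 0.997, change −0.74), MAFA (r = 0.997, change −1.50) and IFIT3 (r = 0.996). IFIT3 was detected on 0 of 3 arrays of TCTP siRNA, so that it was at least 3.40-fold lower there. IFI44 and IFIT3 are interferon-stimulated genes, IRF9 is the DNA-binding subunit of the interferon-activated complex ISGF3, ACSM3 is an acyl-CoA synthetase and MAFA a transcription factor. The 6 points fall into the 2 groups of the study, so that r mostly measures that all these genes were lower with TCTP siRNA. Of the genes compared, 18 had r over 0.99 and 118 had r over 0.95, so that those named are the top of many near ties. With the group means taken out, r was 0.854, 0.893, 0.867, 0.784 and 0.715 in the order named. The genes were picked by r, and these values are not read as co-expression. The values of CDA and IFIT3 with TCTP siRNA were not above the detection threshold. The direction is that of the sample labels and of TPT1 probe ILMN_1789614, while the groups overlapped for the other TPT1 probe. It is opposite to the one the study's text gives for interferon-induced genes. The paper also reports qPCR of IFIT3 and other such genes after TCTP siRNA, and describes their expression as increased. Those qPCR values were not analysed here, and the source of the difference was not tested. For the APOBEC3F probe ILMN_2296950 the closest genes were CC2D1A (r = 0.992), TIMM22 (r = 0.989), METTL17 (r = 0.985), NIPAL3 (r = 0.982) and ST7 (r = 0.982), none of them shared with CDA. This probe had its highest log2 signal on TCTP siRNA sample 2, at 7.99 against 7.74 to 7.81 on the other arrays. Each of the genes just named was also highest on that array. How far these r values rest on that array was not tested, and they are not read as co-expression.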

How the data were processed

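LNCaP cells with Luc siRNA or TCTP siRNA (n = 3 each) were grouped by the sample labels. The authors read the arrays in BeadStudio and deposited, for every probe, an intensity without normalization or background subtraction and a detection p-value. The deposited p-values are whole multiples of 1 part in 759, which sets their resolution. The authors also deposited quantile-normalized intensities, used as an alternative, and the largest difference from the values computed here was 0.029 log2 units. Since no background was subtracted, changes of dim probes are compressed, and the number of arrays limits the precision.

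Quantile normalization of the intensities and the log2 transformation used limma 3.58.1 (R 4.3.3). Median deposited intensities were 35.6 to 43.4, and arrays correlated at 0.984 to 0.996. A probe was kept where 3 or more of the 6 arrays gave a detection p under 0.01 (13484 of 48803 probes). Kept probes were tested with lmFit and eBayes, with Benjamini-Hochberg adjustment. Standard errors and intervals of member probes that were not kept came from a separate fit of the same kind over all 48803 probes. Symbols came from the platform annotation through current RefSeq names. 27578 probes had 1 symbol, 13 several and 21212 none listed, and the brightest kept probe represented a gene. The limma fit was tested on simulated data, and the other steps were not tested in that way.

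The members and the gene lists were chosen with earlier results of these data known. Named were all member probes, TPT1, the 2 genes with the smallest p of each list without a called gene, list genes detected on no array, and the 5 genes most like CDA and like the brightest APOBEC3 probe by Pearson r. TDG and the neighbours of CDA on its chromosome were named after their values were seen. Alternatives were neqc (offset 16), normexp (offset 50), median scaling, the authors' normalized values, eBayes with trend and robust, other detection filters, a block for the replicate number, the mean of a gene's probes, and each sample left out. Plots were made in matplotlib 3.10.9 (Python 3.11.15).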

Additional observations from a re-analysis of the deposited data

How the results depend on the processing

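The change of CDA was −1.77 with neqc and −1.02 with normexp (−1.33 as reported), and −1.39 to −1.29 with each sample left out. With detection required on all 6 arrays CDA was not kept, and 0 member probes were called in place of 1. The changes of the other 11 member probes moved by less than the spread between replicates under every alternative run. The call of TPT1 probe ILMN_1789614 was kept under all 15 alternatives. Over all features, 260 probes and 229 genes were called. Median scaling called 66 probes and 52 genes. Leaving out 1 sample called 89 to 348 probes and 85 to 324 genes, with 123 and 107 without Luc siRNA 1, 93 and 85 without Luc siRNA 2, 102 and 103 without Luc siRNA 3, and 89 and 89 without TCTP siRNA 1. With the replicate number as a block, 139 probes and 118 genes were called. The deviations of same-numbered samples from their group means correlated at −0.079, −0.036 and −0.367, and no sample correlated best with its own number. Deviations from the mean of 3 samples sum to 0, so that some positive correlations between the groups are built in. These values therefore cannot decide whether the numbers pair the samples. Positive correlations joined Luc siRNA 1 with TCTP siRNA 3 (0.443), Luc siRNA 2 with TCTP siRNA 1 (0.270) and Luc siRNA 3 with TCTP siRNA 2 (0.477). No fit used these correlations, and their source was not tested.

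Of the uracil excision genes, 1 (FEN1) was called with normexp (adjusted p = 0.0389), with no detection filter (0.0441) and with eBayes trend and robust (0.0456). Leaving out 1 sample called 0 to 1, the latter without TCTP siRNA 3 (0.041). With the mean of a gene's probes 2 were called, FEN1 (adjusted p = 0.0453) and TDG (change 0.39, adjusted p = 0.0438). All values are from limma. The pyrimidine nucleotide and other deaminase lists had 0 called genes under all 16 alternatives. The signal of CDA with TCTP siRNA, and that of CDADC1, APOBEC3C and APOBEC3G in both groups, lies at or near the background, which limits every change of these probes.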

Other observations

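Of the 3 genes listed on either side of CDA on chromosome 1 in the RefSeq order, CAMK2N1 had the largest change. It encodes an inhibitor of calmodulin-dependent kinase II and was chosen here after its values were seen. Its log2 signal was 9.38, 9.45 and 9.47 with Luc siRNA and 10.92, 11.05 and 11.02 with TCTP siRNA. All TCTP siRNA arrays were higher, and the rise of 1.56 (SE 0.10, limma adjusted p = 4.3e-07) ranked 1 among the rises of the 8968 genes tested, so that CDA and a neighbour moved in opposite directions. MUL1, which lies between them in this order, changed by 0.21 (limma adjusted p = 0.367). On the other side of CDA, PINK1 changed by 0.03 (limma adjusted p = 0.922) and DDOST by −0.02 (limma adjusted p = 0.947). FAM43B and KIF17 were detected on no array.

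TDG, the thymine DNA glycosylase that removes deaminated methylcytosine, was the third uracil excision gene with an unadjusted p under 0.05. It gave 10.99, 10.97 and 10.73 with Luc siRNA and 11.31, 10.91 and 11.31 with TCTP siRNA. TCTP siRNA sample 2 lay within the range of the controls, and the change of 0.28 (SE 0.13) had a limma adjusted p of 0.312.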
